A study of Mus musculus with 27 samples.

Results

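The G2 and mitosis module is a list of 48 mouse genes that are switched on late in the cell cycle, and it was followed here in splenic B cells activated with anti-CD40, IL-4 and IL-21. The members were taken by name from the list, and all 48 were found among the 35604 genes of the table by symbol. Polyadenylated RNA was sequenced from primary B cells of the spleen of wild-type mice in 27 libraries, which form 9 groups of 3. In 8 of the groups the cells were cultured for 6 h or 24 h with anti-CD40 antibody at 1 µg/mL together with IL-4 at 12.5 ng/mL and IL-21 at 50 ng/mL, with IL-21 alone, with IL-4 alone, or with neither cytokine. The remaining group was naive, uncultured B cells, so every comparison with naive cells also compares culture with no culture. In cultured cells that all had anti-CD40, the design asks what IL-21 signalling does inside the B cell with and without IL-4. The labels do not say whether replicates came from separate animals, so p values measure the spread between these libraries, which may be technical. The best correlate of 23 of the 27 libraries carried the same replicate number, and the main model has no term for that number. Expression is in TPM (a length-corrected share of all transcripts), which keeps no read depth, so the depth of each library is unknown. In such bulk samples, fewer cells in G2 or mitosis and less RNA per cell cannot be told apart.

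Cells enter mitosis when the kinase CDK1 and its cyclin partners are switched on, after which Polo and Aurora kinases build the spindle, the kinetochores attach chromosomes to it, and the anaphase-promoting complex degrades cyclins to end the division. The genes for these proteins are mostly expressed at low levels in resting cells. They are held down by the DREAM complex and later activated by B-MYB bound to MuvB and by FOXM1, through promoter elements known as the CHR and through CCAAT boxes. CD40 and cytokine signals from helper T cells can bring resting B cells back into the cycle, and mitotic genes are known markers of that entry.

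The CHR occurs as TTTGAA or TTTAAA, and both were looked for together with CCAAT on either strand in RefSeq promoter windows of GRCm38.p6 that run from 250 bases before to 50 bases after the gene start. A window was available for 39 of the 48 members. TTTGAA was present in a window of 30 of these 39 genes (76.9%), against 17.9% of all 32851 windows of this length. CCAAT was present in 29 of 39 (74.4%), against 37.4% of all windows, and TTTAAA in 9 of 39 (23.1%), against 13.2%. TTTGAA and CCAAT stood together in 26 of 39 (66.7%), against 7.0%. No match to any of the 3 was found for 5 of 39 (12.8%), against 45.7% of all windows. Of the 43 TTTGAA matches in member windows, 33 began within 50 bases of the gene start. Matches of Ect2 and Prc1 are counted in each of their overlapping windows. Positions in all windows were not computed, so the 33 have no share to be set against. A match is a description of the letters and not a measured binding site. The 120 bases upstream of the start are printed 5′ to 3′ on the gene's strand for 6 members that carry matches. These 6 show different responses to IL-4 and IL-21. Mad2l1 and Mybl2, which carry no match in these bases, are printed too. Whether matches go with the response to either cytokine was not tested. Matches elsewhere in the windows are left out. Among them, past the start, are TTTGAA of Ccnb2 (from position 4) and of Plk1 (30). The same holds for TTTAAA and TTTGAA of Aurka (17 and 32). The printed bases carry capitals where a match lies on either strand. They lie at chr7:122159315-122159434 (+ strand) for Plk1, chr9:70421555-70421674 (- strand) for Ccnb2, chr2:172370571-172370690 (- strand) for Aurka, chr19:37376262-37376381 (+ strand) for Kif11, chr11:99024190-99024309 (- strand) for Top2a, chr7:135716380-135716499 (- strand) for Mki67, chr6:66535101-66535220 (+ strand) for Mad2l1 and chr2:163054515-163054634 (+ strand) for Mybl2.
Plk1: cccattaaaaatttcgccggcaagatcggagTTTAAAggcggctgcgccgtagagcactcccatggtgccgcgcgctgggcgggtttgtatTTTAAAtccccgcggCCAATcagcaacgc
Ccnb2: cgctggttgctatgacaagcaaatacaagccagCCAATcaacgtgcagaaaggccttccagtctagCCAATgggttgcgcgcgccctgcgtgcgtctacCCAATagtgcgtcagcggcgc
Aurka: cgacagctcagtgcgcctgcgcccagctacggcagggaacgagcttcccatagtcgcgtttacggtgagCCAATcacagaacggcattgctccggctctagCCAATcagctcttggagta
Kif11: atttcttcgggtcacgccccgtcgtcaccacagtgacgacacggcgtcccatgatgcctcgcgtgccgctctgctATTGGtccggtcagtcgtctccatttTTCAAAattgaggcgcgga
Top2a: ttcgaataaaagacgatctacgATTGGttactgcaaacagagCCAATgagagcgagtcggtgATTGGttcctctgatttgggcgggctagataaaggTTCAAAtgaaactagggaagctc
Mki67: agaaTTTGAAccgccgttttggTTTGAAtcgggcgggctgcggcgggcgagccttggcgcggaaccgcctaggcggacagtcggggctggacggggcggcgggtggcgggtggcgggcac
Mad2l1: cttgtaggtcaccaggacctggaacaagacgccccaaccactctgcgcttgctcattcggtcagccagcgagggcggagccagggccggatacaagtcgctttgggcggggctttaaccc
Mybl2: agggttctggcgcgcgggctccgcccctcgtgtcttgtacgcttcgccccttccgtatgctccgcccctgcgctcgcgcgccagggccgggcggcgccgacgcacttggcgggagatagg

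The module as a whole stayed at or near its resting level at 6 h and was higher at 24 h, most of all in cells given IL-21. Its mean log2(TPM + 1) over the 48 genes was 2.14 ± 0.18 in naive cells (SD, n = 3 in this and every group). At 6 h it was 1.92 ± 0.12 with both cytokines, 2.16 ± 0.08 with IL-21, 1.97 ± 0.14 with IL-4 and 1.95 ± 0.19 with anti-CD40 alone, values that lie within the range of the naive libraries or just below it. At 24 h it was 3.97 ± 0.08 with both cytokines, 4.43 ± 0.14 with IL-21, 3.26 ± 0.35 with IL-4 and 2.58 ± 0.27 with anti-CD40 alone. No library of one 24 h group overlapped another on this mean. The summed TPM of the members at 24 h averaged 1237 ± 63.4 with both cytokines, 1687 ± 175 with IL-21, 825 ± 152 with IL-4 and 394 ± 85.1 with anti-CD40 alone, against 306 ± 44.3 in naive cells. The order IL-21, both cytokines, IL-4, anti-CD40 alone, from high to low, held for the group means of 40 of the 48 members at 24 h.

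**Figure D1:**
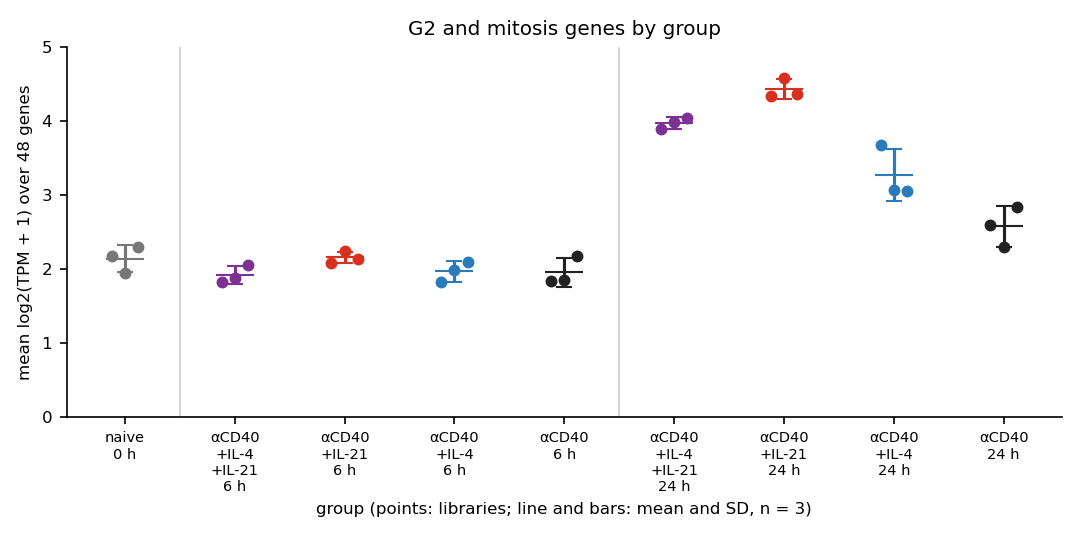
Mean log2(TPM + 1) over the 48 G2 and mitosis genes (y axis) in each of the 27 libraries (points), by group (x axis), with group mean and SD (lines and bars, n = 3). Both groups given IL-21 sit between 3.89 and 4.59 at 24 h, and in the IL-4 group replicate 1, at 3.67, lies above replicates 2 and 3.

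Facts of the whole data set that touch these values are as follows. All 8 B cell markers were detected in every library, with a summed level of 1422 to 8526 TPM. The 6 T cell markers summed to at most 5.97 TPM in any library and the 4 NK cell markers to at most 2.34 TPM. The 5 erythroid markers summed to 678 to 1291 TPM in naive cells, against 59.2 to 146 TPM at 6 h and 6.03 to 28.8 TPM at 24 h. Macrophage and monocyte markers summed to 24.5 to 35.6 TPM in naive cells and to at most 9.3 TPM elsewhere. At 24 h ribosomal protein transcripts took 21.9% to 22.7% of TPM with both cytokines and 18.3% to 23.9% with IL-21, against 23.0% to 29.2% with IL-4 and 24.9% to 29.2% with anti-CD40 alone. In the IL-4 group at 24 h, replicate 1 had a mitochondrial share of 7.89%, against 11.63% and 10.97% in replicates 2 and 3, and a module mean of 3.67, against 3.07 and 3.05. Naive replicate 1 had a mitochondrial share of 5.5%, against 12.7% and 13.5%.

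Of the 48 members, 46 reached 1 TPM in at least 3 libraries and were tested with limma among 12147 genes, with Benjamini-Hochberg adjustment over all of them and a call at an adjusted p below 0.05. Cenpe, a kinetochore motor, reached 1 TPM in 3 libraries, 2 with IL-21 at 24 h and 1 with both cytokines at 6 h. The 2 members that were not tested act at mitotic exit. Cdc20, which activates the anaphase-promoting complex, was listed at 0 in all 3 libraries with both cytokines at 24 h, at 0.916, 0 and 2.21 TPM with IL-21, at 0.0393, 0.756 and 0 TPM with IL-4, and at 0.164, 0 and 0 TPM with anti-CD40 alone. Ube2c, the ubiquitin-conjugating enzyme of the same complex, did not exceed 0.144 TPM in any of the 27 libraries. Both were listed near 0 also in the groups where their mitotic partners were high, and the table does not show whether this is the level of the transcripts or a failed estimate. Processed copies of these genes exist, Gm7856 for Cdc20 with at most 0.21 TPM in a library and Gm8956 for Ube2c with at most 0.56 TPM. A search of GENCODE M21 transcripts found pseudogene copies with at least 90% identity over at least 200 bases for 13 members, and the highest group mean of any of the 23 copies was 2.18 TPM, so reads shared with such copies leave those members less certain. Birc5, the survivin subunit of the chromosomal passenger complex, and Foxm1 were also low, with group means of at most 2.2 TPM and 2.58 TPM. Birc5 reached 1 TPM in 6 libraries, all with IL-21. Cenpe and Birc5 thus passed the filter only through libraries with IL-21, so their calls lend no support of their own to a rise with IL-21.

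**Figure D2:**
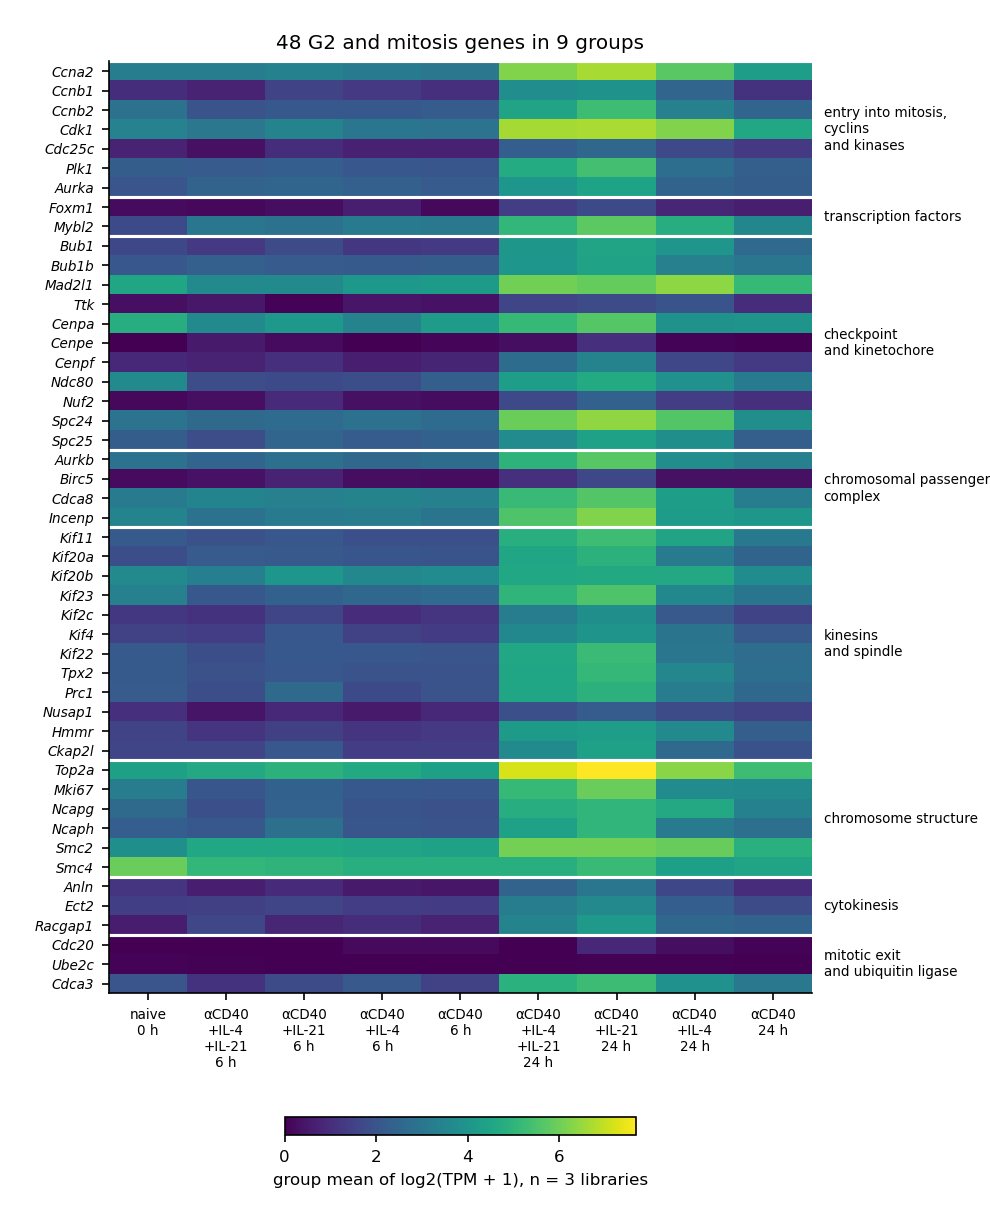
Group means of log2(TPM + 1) (colour) for the 48 members (rows, in blocks by role) in the 9 groups (columns, n = 3 libraries each). The columns with IL-21 at 24 h are the brightest in nearly every row, with Top2a the highest at 205 TPM, while Smc4 is highest in naive cells and Cdc20 and Ube2c stay dark in all columns.

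Adding IL-21 to anti-CD40 for 24 h raised 43 of the 46 members tested. Cenpe and Birc5, which had passed the filter only through libraries with IL-21, are among them. No member was lower, where 17.8% of all genes tested were higher and 6.33% lower. The change reached 2-fold or more in 41 of the 43. The median change was 2.11 on the log2(TPM + 1) scale, against 0.23 over all genes tested, and this scale understates changes of low genes. The 3 members that were not called, Mad2l1, Smc4 and Ttk, changed by 0.71 to 0.81, each with an unadjusted p below 0.05. All 3 libraries with IL-21 lay above all 3 with anti-CD40 alone for 43 of the 46 members tested, where 27.6% of all genes tested showed this. Markers of B cell identity and of plasma cells moved in the same comparison: 2 of 8 B cell markers were lower and 0 higher (median -0.80), with summed levels of 3994 to 5887 TPM with IL-21, against 5536 to 6727 TPM with anti-CD40 alone. Of 4 plasma cell markers tested 3 were higher and 1 lower (median 1.02), with sums over all 5 of 48.6 to 66.5 TPM with IL-21, against 68.5 to 90.9 TPM with anti-CD40 alone. Sdc1, Prdm1 and Tnfrsf17 of that list were at 0 in at least 1 of the 27 libraries. Of 3 germinal centre markers tested 2 were lower and 0 higher (median -0.84). Of 3 macrophage and monocyte markers 1 was lower and 0 higher, and of 2 dendritic cell markers 1 was higher and 0 lower. The part of these shifts in the result was not tested. Rescaling by median of ratios left 40 members higher (12.9% of all genes), with an all-gene median of 0 and a members' median of 1.85. The number was 41 when mitochondrial, ribosomal protein and pseudogene transcripts were taken out.

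All 7 genes of mitotic entry rose with IL-21. Plk1, the Polo kinase that drives mitotic entry and spindle assembly, had the largest change of any member, with 39.3, 50.3 and 34.8 TPM with IL-21 at 24 h, against 4.12, 2.66 and 5.68 TPM with anti-CD40 alone (log2 change 3.07 ± 0.41 SE, limma adjusted p = 9.37e-06). Ccnb1, the cyclin that activates CDK1, had 11.3, 14.0 and 18.8 TPM with IL-21, against 2.48, 0.0697 and 1.76 TPM with anti-CD40 alone (2.83 ± 0.46, limma adjusted p = 9.07e-05). The IL-21 libraries were higher throughout, without overlap. Cdk1 itself had 93.4, 93.7 and 125 TPM with IL-21, against 23.1, 19.3 and 28.2 TPM with anti-CD40 alone (2.10 ± 0.27). Ccnb2, Ccna2 and Aurka rose by 2.80, 2.38 and 2.19, and Cdc25c, the phosphatase that activates CDK1, by 1.31. Of the 2 transcription factors of the module, Mybl2, which encodes B-MYB, had 52.6, 63.0 and 43.7 TPM with IL-21, against 11.7, 7.25 and 13.2 TPM with anti-CD40 alone (2.23 ± 0.33). Foxm1 had 1.81, 4.60 and 1.32 TPM with IL-21, against 0.212, 0.310 and 1.38 TPM with anti-CD40 alone. Its change of 1.09 ± 0.32 passed the test (limma adjusted p = 0.0159), but the groups overlapped and the call was lost with a pseudocount of 0.1 and without any 1 of 3 libraries: IL-21 replicate 2 and anti-CD40 replicates 1 and 2.

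Kinetochore and checkpoint genes rose less evenly, 9 of 11 with Cenpe counted. Spc24, a subunit of the NDC80 complex that holds microtubules, rose by 2.61, Cenpf by 2.12, Bub1 by 1.86 and Ndc80 by 1.52. Cenpa, the histone H3 variant that marks the centromere, had 58.9, 50.5 and 39.8 TPM with IL-21, against 15.8, 11.4 and 18.1 TPM with anti-CD40 alone (1.66 ± 0.20). Mad2l1, the checkpoint protein that restrains CDC20, had 46.7, 45.7 and 85.5 TPM with IL-21, against 32.4, 38.8 and 32.1 TPM with anti-CD40 alone (0.71 ± 0.27, limma adjusted p = 0.0572), so the groups did not overlap but the test was missed. Ttk, the checkpoint kinase MPS1, had 3.30, 3.34 and 1.24 TPM with IL-21, against 1.28, 0.039 and 2.25 TPM with anti-CD40 alone, with overlap (0.81 ± 0.34, limma adjusted p = 0.0863). The 4 subunits of the chromosomal passenger complex, which corrects attachments, all rose. Aurkb, its kinase, had 52.8, 61.0 and 41.1 TPM with IL-21, against 8.32, 8.23 and 11.4 TPM with anti-CD40 alone (2.35 ± 0.34). Cdca8, Incenp and Birc5 rose by 2.42, 2.16 and 1.32, but Birc5 had passed the filter only through libraries with IL-21. The 12 kinesins and spindle genes all rose, from Kif23, a motor of the central spindle, at 2.56 to Nusap1, a microtubule bundler, at 0.74. Calls of Nusap1 and Kif20b were lost after median-of-ratios rescaling (adjusted p = 0.209 and 0.206).

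Among genes of chromosome structure, 5 of 6 rose. Top2a, the topoisomerase that untangles sister chromatids, was the most abundant member, with 185, 236 and 195 TPM with IL-21, against 41.7, 27.3 and 48.9 TPM with anti-CD40 alone (2.39 ± 0.25). Mki67, which encodes the proliferation marker Ki-67, had 58.6, 92.4 and 38.9 TPM with IL-21, against 12.6, 8.72 and 15.0 TPM with anti-CD40 alone (2.24 ± 0.35). Neither gene's groups overlapped. The condensin subunits Ncaph, Ncapg and Smc2 rose by 2.21, 1.69 and 1.21, while Smc4, the partner of SMC2, had 25.1, 45.9 and 40.1 TPM with IL-21, against 15.0, 18.7 and 35.1 TPM with anti-CD40 alone, with overlap (0.72 ± 0.32, limma adjusted p = 0.108). The cytokinesis genes Anln, Ect2 and Racgap1 rose by 2.05, 1.84 and 1.67, and Cdca3, a trigger of mitotic entry, by 2.22.

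**Figure D3:**
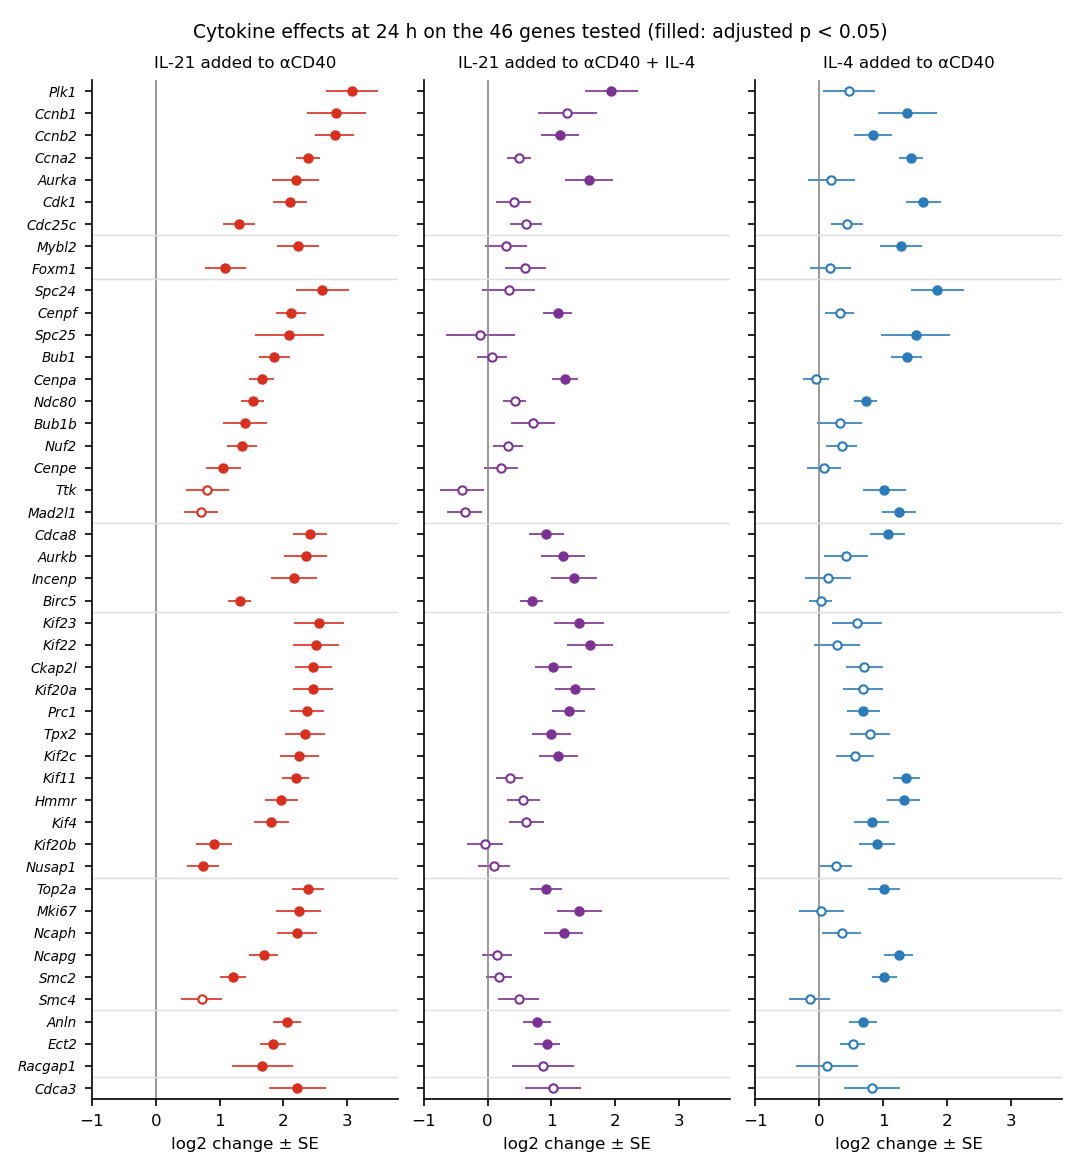
Log2 changes with SE (x axis) of the 46 members tested (y axis, in blocks by role) at 24 h for IL-21 added to anti-CD40, IL-21 added to anti-CD40 and IL-4, and IL-4 added to anti-CD40. Filled points passed an adjusted p below 0.05: 43 members in the left panel and 21 in each of the other panels.

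IL-4 added to anti-CD40 for 24 h raised Cdk1, 3 cyclins and 6 kinetochore and checkpoint genes among others, while Plk1, Mki67 and Cenpa did not pass the test. Of 46 members, 21 were higher and 0 lower, where 8.28% of all genes tested were higher and 23.1% lower, and 4 of those not called had an unadjusted p below 0.05. The median change was 0.69, against -0.31 over all genes. Of 8 B cell markers 5 were lower and 0 higher in this comparison, with sums of 2552 to 5147 TPM with IL-4, against 5536 to 6727 TPM with anti-CD40 alone, and their part in the result was not tested. Spc24 had the largest change, with 73.4, 45.3 and 34.6 TPM with IL-4, against 19.0, 6.67 and 16.1 TPM with anti-CD40 alone (1.85 ± 0.41, limma adjusted p = 0.00157). Cdk1 had 58.9, 70.8 and 97.5 TPM with IL-4, against 23.1, 19.3 and 28.2 TPM with anti-CD40 alone (1.63 ± 0.27, limma adjusted p = 8.39e-05). In both genes the IL-4 libraries lay above all those with anti-CD40 alone. Mad2l1 had 53.9, 90.7 and 116 TPM with IL-4, against 32.4, 38.8 and 32.1 TPM with anti-CD40 alone (1.25 ± 0.27, limma adjusted p = 0.00123). Ttk had 2.09, 3.99 and 3.19 TPM with IL-4, against 1.28, 0.039 and 2.25 TPM with anti-CD40 alone (1.02 ± 0.34), with overlap. These checkpoint genes, with Kif20b, were the 3 members whose highest mean of all 9 groups was that with IL-4 at 24 h.

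By role, IL-4 raised 4 of 7 genes of mitotic entry (Cdk1, Ccna2, Ccnb1 and Ccnb2), 6 of 11 checkpoint and kinetochore genes, 5 of 12 kinesins and spindle genes, 3 of 6 genes of chromosome structure (Top2a, Ncapg and Smc2), Mybl2 of the 2 transcription factors, Anln of the 3 cytokinesis genes, and Cdca8 of the 4 passenger complex genes. Plk1 had 17.0, 4.30 and 2.42 TPM with IL-4, Aurkb 30.2, 8.83 and 7.33 TPM, and Mki67 27.5, 9.06 and 6.92 TPM, with changes of 0.46, 0.42 and 0.03 that missed the test. In each of these genes replicate 1 of the IL-4 group was the high library and the other libraries lay within or below the range of anti-CD40 alone. Without replicate 1 the changes were -0.23, -0.18 and -0.52, none called. Cenpa had 15.8, 10.6 and 17.3 TPM with IL-4, with a change of -0.05 ± 0.20, and Smc4 31.4, 14.3 and 15.9 TPM, with a change of -0.15 ± 0.32. The count of 21 members became 17 without that replicate and 10 when the model held the 2 groups compared and no others. It became 35 (19.2% of all genes) on rescaling by median of ratios, with an all-gene median of 0 and a members' median of 1.09.

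**Figure D4:**
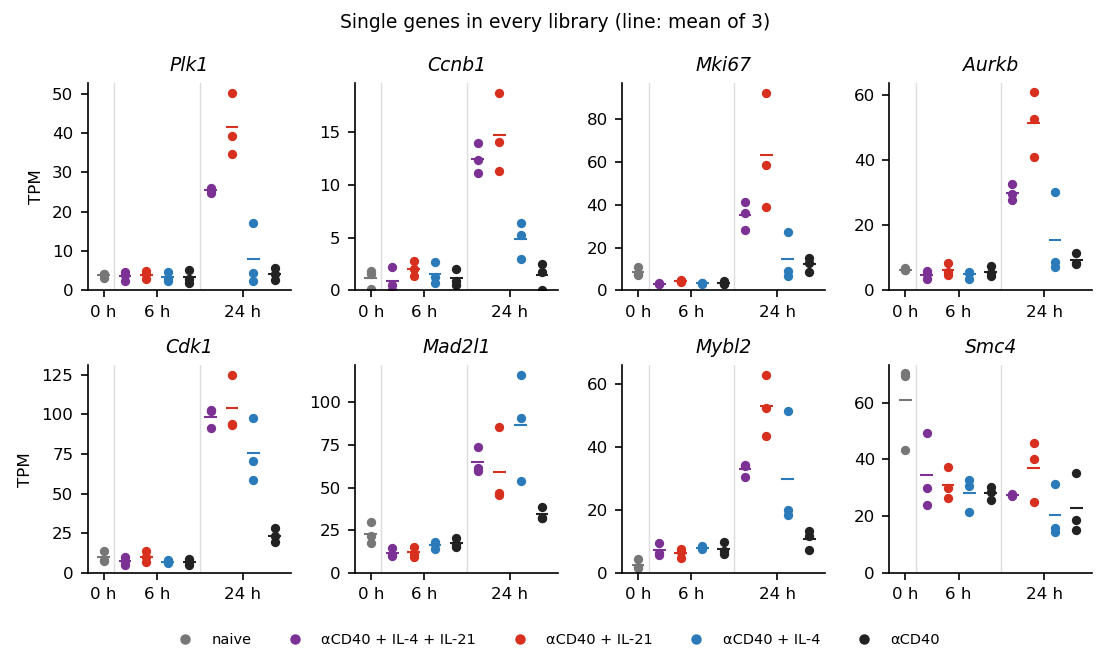
TPM (y axis) of 8 members in every library (points; lines are means of 3) by time of culture (x axis) and treatment (colour, in the order of the legend within each time). With IL-4 at 24 h, Cdk1, Mad2l1 and Mybl2 lie above anti-CD40 alone in all 3 libraries, while Plk1, Mki67 and Aurkb do so in replicate 1.

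IL-21 added to cells that already had anti-CD40 and IL-4 raised 21 of 46 members at 24 h and lowered 0, where 21.8% of all genes tested were higher and 2.39% lower. The median change was 0.74, against 0.38 over all genes, and 7 members not called had an unadjusted p below 0.05. Of 8 B cell markers 2 were higher and 1 lower, and of 4 plasma cell markers tested 3 were higher and 0 lower. Their part in the result was not tested. Plk1 again changed most, with 26.2, 25.6 and 24.8 TPM with IL-4 plus IL-21, against 17.0, 4.30 and 2.42 TPM with IL-4 (1.94 ± 0.41, limma adjusted p = 0.00221). Kif22, a motor that pushes chromosome arms, had 23.0, 25.1 and 22.3 TPM with IL-4 plus IL-21, against 16.8, 5.22 and 3.71 TPM with IL-4 (1.60 ± 0.36, limma adjusted p = 0.00373). In both, replicate 1 with IL-4 was nearest to the libraries with both cytokines, and there was no overlap. Mki67 had 28.2, 36.1 and 41.2 TPM with IL-4 plus IL-21, against 27.5, 9.06 and 6.92 TPM with IL-4 (1.44 ± 0.35). Cenpa had 34.8, 38.7 and 30.3 TPM with IL-4 plus IL-21, against 15.8, 10.6 and 17.3 TPM with IL-4 (1.21 ± 0.20, limma adjusted p = 0.000214). Again the libraries with both cytokines were above all those with IL-4, by little over replicate 1 in Mki67. All 4 passenger complex genes rose, by 0.69 to 1.36, with the same limit of the filter on Birc5. So did 7 of 12 kinesins and spindle genes and 2 of 3 cytokinesis genes. Of 11 checkpoint and kinetochore genes 2 rose, Cenpa and Cenpf.

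Cdk1 had 103, 91.3 and 102 TPM with IL-4 plus IL-21, against 58.9, 70.8 and 97.5 TPM with IL-4 (0.41 ± 0.27, limma adjusted p = 0.267). Mybl2 had 30.5, 33.9 and 34.4 TPM with IL-4 plus IL-21, against 51.4, 19.9 and 18.6 TPM with IL-4 (0.29 ± 0.33). Both genes' groups overlapped. Mad2l1 had 59.6, 61.3 and 73.5 TPM with IL-4 plus IL-21, against 53.9, 90.7 and 116 TPM with IL-4 (-0.36 ± 0.27), and Ttk 2.24, 1.06 and 3.20 TPM, against 2.09, 3.99 and 3.19 TPM (-0.40 ± 0.34). The changes of Mad2l1 and Ttk were the lowest of the 46 and neither passed the test. This count depended on the IL-4 group: 8 members were called without its replicate 3, 9 without its replicate 2, 29 without its replicate 1, when Plk1 changed by 2.64 and Mad2l1 was called lower at -0.66, and 13 (10.1% of all genes) on rescaling by median of ratios, when the members' median was 0.35 and that of all genes -0.01. With the 2 groups compared and no others in the model, 1 member was called, Cenpa. The IL-4 libraries of this comparison are also those of IL-4 added to anti-CD40, so the values of both are given side by side and not compared.

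Set directly against IL-4 at 24 h, IL-21 gave higher values for 36 of 46 members and lower for 0, where 40.8% of all genes tested were higher and 5.52% lower (median 1.31, against 0.55 over all genes). Cenpe and Birc5, which had passed the filter only through libraries with IL-21, are among the 36. Of 8 B cell markers 4 were higher and 2 lower, and of 4 plasma cell markers tested 3 were higher and 0 lower. Their part in the result was not tested. Plk1 (2.61 ± 0.41) and Kif22 (2.24 ± 0.36) differed most, and Kif22 had 34.2, 44.6 and 33.0 TPM with IL-21, against 16.8, 5.22 and 3.71 TPM with IL-4. Cenpa had 58.9, 50.5 and 39.8 TPM with IL-21, against 15.8, 10.6 and 17.3 TPM with IL-4 (1.71 ± 0.20, limma adjusted p = 1.36e-06), while Smc2 had 59.2, 70.3 and 72.3 TPM with IL-21, against 48.7, 58.6 and 70.8 TPM with IL-4 (0.19 ± 0.20, limma adjusted p = 0.464). The Cenpa groups were far apart and the Smc2 groups overlapped. Cdk1, Spc24, Bub1, Ncapg, Spc25, Nusap1 and Kif20b were also not called, nor were Mad2l1 (-0.54 ± 0.27) and Ttk (-0.21 ± 0.34). On rescaling by median of ratios 21 members were higher (17.8% of all genes), with a member median of 0.63 and an all-gene median of 0, and Mad2l1 was lower (-1.28, limma adjusted p = 0.0137), as it was without replicate 1 of the IL-4 group (-0.85). Plk1, Kif22, Cenpa and Mki67 were called with both of these choices and with the 2 groups compared and no others in the model, when the count was 22.

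Adding IL-4 to anti-CD40 and IL-21 for 24 h gave 0 higher members and 1 lower, where 2.22% and 4.53% of all genes tested were higher and lower. The lower member was Birc5 (-0.61 ± 0.18, limma adjusted p = 0.0406), with 1.14, 0.894 and 1.18 TPM with IL-4 plus IL-21, against 1.53, 2.92 and 2.15 TPM with IL-21, a call lost without any 1 of 5 of these libraries and on rescaling by median of ratios (adjusted p = 0.139). The median change was -0.44, against -0.14 over all genes, and 12 members not called had an unadjusted p below 0.05. Without replicate 1 of the IL-21 group 3 members were lower. For 28 of the 46 members all 3 libraries with both cytokines lay below all 3 with IL-21, as they did for 18% of all genes tested. Ccnb2 had 22.1, 23.5 and 19.2 TPM with IL-4 plus IL-21, against 36.3, 43.4 and 36.6 TPM with IL-21 (-0.82 ± 0.30, limma adjusted p = 0.125). Cenpe was listed at 0.215, 0 and 0.486 TPM with both cytokines and at 0.316, 1.38 and 1.89 TPM with IL-21 (-0.77 ± 0.27). Mad2l1 (0.18 ± 0.27) and Smc2 (-0.01 ± 0.20) had the highest changes. Smc2 had 57.4, 67.6 and 76.2 TPM with IL-4 plus IL-21, against the 59.2, 70.3 and 72.3 TPM with IL-21.

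The effect of IL-21 thus differed with IL-4 for part of the module. The interaction at 24 h, the IL-21 effect with IL-4 minus that without, was negative and past the threshold for 15 of 46 members and positive for 0, where 2.48% and 3.33% of all genes tested were called negative and positive. Its median was -1.11, against 0.19 over all genes. The 15 were Ccna2, Ccnb2, Cdk1, Mybl2, Bub1, Ndc80, Spc24, Cdca8, Kif11, Hmmr, Ckap2l, Top2a, Ncapg, Smc2 and Anln. Ccna2, cyclin A2, rose by 2.38 with IL-21 in the absence of IL-4 and changed by 0.49 in its presence, an interaction of -1.89 ± 0.26 (limma adjusted p = 0.00011). For Kif11, the motor that separates spindle poles, these values were 2.19, 0.35 and -1.84 ± 0.30 (limma adjusted p = 0.000445). The interaction of Cenpa was -0.45 ± 0.29, that of Aurka -0.60 ± 0.52 and that of Mki67 -0.80 ± 0.49, none past the threshold. Omitting replicate 2 of anti-CD40 alone gave 9 members, and a model of the 4 groups compared and no others called 6. Rescaling by median of ratios gave 28 (6.33% of all genes).

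At 6 h the cytokines changed few members. IL-21 added to anti-CD40 gave 0 higher members and 1 lower, where 7.43% and 4.68% of all genes tested were called, and 9 members not called had an unadjusted p below 0.05. The lower member was Ndc80, which had 1.95, 2.61 and 2.42 TPM with IL-21, against 4.10, 4.36 and 3.52 TPM with anti-CD40 alone (-0.59 ± 0.18, limma adjusted p = 0.0365). Of 8 B cell markers 4 were lower and 0 higher in this comparison. Their sums were 1422 to 2338 TPM with IL-21, against 2961 to 5130 TPM with anti-CD40 alone, and their part in the result was not tested. With the replicate number as a block, 1 member was higher, the condensin subunit Ncapg (0.51, limma adjusted p = 0.0262), and with that block IL-4 added to anti-CD40 and IL-21 lowered it (-0.54, limma adjusted p = 0.0452). Without replicate 3 of the IL-21 group 2 members were higher. IL-4 added to anti-CD40 gave 0 higher members and 1 lower, Cenpa, where 1.65% of all genes tested were higher and 2.40% lower. It had 8.21, 12.6 and 9.38 TPM with IL-4, against 20.1, 17.1 and 16.5 TPM with anti-CD40 alone (-0.79 ± 0.20, limma adjusted p = 0.0263). The Ndc80 and Cenpa groups did not overlap, and each call was lost without any 1 of 5 of the 6 libraries compared. By limma, neither IL-21 added to anti-CD40 and IL-4 nor IL-4 added to anti-CD40 and IL-21 called any member at 6 h. Of all genes tested, 1.25% were higher and 1.28% lower when IL-21 was added, and 1.27% were higher and 2.89% lower when IL-4 was added. At an unadjusted p below 0.05 there were 1 and 10 members.

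Between 6 h and 24 h, part of the module rose with anti-CD40 alone and nearly all of it where IL-21 was present. At 24 h against 6 h, 44 of 46 members were higher with both cytokines (20.8% of all genes tested), 44 with IL-21 (26.2%), 35 with IL-4 (8.82%) and 15 with anti-CD40 alone (16.1%). None was lower in any of the 4, where 9.46%, 9.3%, 16.6% and 8.17% of all genes were. Cenpe and Birc5 had passed the filter only through libraries with IL-21 and are among the 44 with IL-21 and no IL-4. Birc5 is also among the 44 with both cytokines. The median changes were 2.22, 2.34, 1.22 and 0.60, against 0.12, 0.24, -0.13 and 0.15 over all genes. Mki67 had 58.6, 92.4 and 38.9 TPM at 24 h with IL-21, against 3.94, 4.20 and 4.70 TPM at 6 h (3.52 ± 0.35). The 15 members that were higher with anti-CD40 alone included Racgap1, Cdk1, Mki67, Ccna2 and Ncapg, with changes of 1.25 to 1.68, but not Plk1 (0.28 ± 0.41) or Ccnb1 (0.08 ± 0.46). Omitting replicate 3 of anti-CD40 alone at 24 h lowered the 15 to 9, and a model of the 2 groups compared and no others lowered the 35 with IL-4 to 19. Smc4 did not pass the test in any of the 4.

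Against naive, uncultured cells, a few members were lower at 6 h and Mybl2 and Smc2 were higher. With both cytokines 2 members were higher and 9 lower (25.5% and 18.9% of all genes tested), with IL-21 4 and 5 (27% and 17.7%), with IL-4 2 and 7 (21.1% and 17.4%), and with anti-CD40 alone 2 and 6 (16.6% and 13.3%). The shares of members are below those of all genes for higher genes and near or below them for lower genes. Mybl2 was higher in all 4, by 1.12 to 1.44, with 5.89, 6.98 and 9.80 TPM with anti-CD40 alone at 6 h, against 4.53, 1.48 and 1.71 TPM in naive cells. Ndc80 was lower in all 4, by -1.93 to -1.34, with 4.10, 4.36 and 3.52 TPM with anti-CD40 alone at 6 h, against 11.5, 10.3 and 13.3 TPM in naive cells. Smc4, highest of all members in naive cells at 43.2, 69.4 and 70.3 TPM, and Cenpa, at 28.4, 24.3 and 26.9 TPM there, were also lower in all 4 at 6 h. The erythroid markers, at 678 to 1291 TPM in naive cells against at most 146 TPM at 6 h, moved with these genes, and their part in these differences was not tested. Of the lower counts, that with anti-CD40 alone was 2 without naive replicate 3 or anti-CD40 replicate 1 and 3 without naive replicate 2 or anti-CD40 replicate 2. The lower count with IL-4 was 3 and that with IL-21 was 2 without naive replicate 3 or replicate 1 of the stimulated group, that with IL-21 was 3 without its replicate 2, and that with both cytokines was 4 without naive replicate 3. Of the higher counts, that with anti-CD40 alone was 1 without any 1 of the libraries compared other than naive replicate 3, that with IL-4 was 1 and that with IL-21 was 2 without naive replicate 2, that with IL-21 was also 2 without its replicate 2, and that with both cytokines was 4 without its replicate 2.

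At 24 h against naive cells, 43 of 46 members were higher with both cytokines (32% of all genes tested), 45 with IL-21 (39.6%), 32 with IL-4 (19.3%) and 11 with anti-CD40 alone (18.9%). Lower were 1, 0, 2 and 3 members, where 13.7%, 10.9%, 22.9% and 7.85% of all genes were. The 45 with IL-21 include Cenpe and Birc5, which had passed the filter only through libraries with IL-21. Smc4 was lower with both cytokines (-1.09 ± 0.32), with IL-4 (-1.58 ± 0.32) and with anti-CD40 alone (-1.43 ± 0.32). With IL-21 its change of -0.71 missed the test (limma adjusted p = 0.0673), and it was called lower without naive replicate 1 (-0.94), without replicate 2 of the IL-21 group (-0.89) and on rescaling by median of ratios (-1.30). Cenpa was lower with IL-4 (-0.84 ± 0.20) and with anti-CD40 alone (-0.79 ± 0.20). Ndc80 was lower with anti-CD40 alone (-0.50). The erythroid markers, at 678 to 1291 TPM in naive cells, summed to 6.03 to 28.8 TPM at 24 h, and their part in these lower calls was not tested. Omitting replicate 3 of anti-CD40 alone lowered its 11 to 7, and a model of the 2 groups compared and no others lowered the 32 with IL-4 to 19.

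Lists of neighbouring genes, chosen by function, put these values in context for IL-21 added to anti-CD40 at 24 h. Of 48 further late G2 and mitosis genes tested, 40 were higher (median 1.71, against 0.23 over all genes), led by Nek2 (2.70), a centrosome kinase, Cep55 (2.52) and Kif18b (2.49). Of 39 S phase and DNA replication genes, 34 were higher (median 1.33), led by Ccne1 (2.97), Mcm3 (2.74) and Rrm2 (2.35). The shares in the next lists can be read against the 17.8% of all genes tested that were higher and the 6.33% that were lower. The anaphase-promoting complex core had 3 of 14 higher (median 0.24), led by Anapc5 (0.97), and cohesin had 2 of 9, Smc3 (0.87) and Smc1a (0.84). Of 9 genes of DREAM and MuvB, 3 were higher, Tfdp1 (1.62), Lin9 (0.72) and Rbbp4 (0.63). In a list of 7 genes made up of E2F genes and Rb1, 4 were higher, led by E2f8 (1.91), E2f7 (1.70) and E2f2 (1.48). In a mixed list of 11 regulators of mitotic entry and of the anaphase-promoting complex, 3 were higher and 1 lower. The largest changes among those called were those of Gadd45g (2.21), Fbxo5 (1.9) and Cdkn1a (0.85). Fbxo5 encodes EMI1, an inhibitor of the anaphase-promoting complex and not a brake on entry, and Cdkn1a encodes p21. When IL-21 was added to anti-CD40 and IL-4, 16 of the 48 further mitosis genes were higher and 0 lower, and 4 of the 39 S phase genes were higher and 2 lower, where 21.8% of all genes tested were higher and 2.39% lower. When IL-4 was added to anti-CD40, 21 of the mitosis genes were higher and 1 lower, and 20 of the S phase genes were higher and 0 lower, where 8.28% of all genes tested were higher and 23.1% lower. Both comparisons use the same IL-4 libraries, which raise one change and lower the other, so their counts are set side by side and not compared.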

How the data were processed

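RNA-seq of 27 libraries in 9 groups of 3 was taken as deposited. The submitters' processing notes name Salmon 1.9.0 and the builds GRCm38 and mm10, with no further step given, and the authors deposited TPM values for 35604 genes; the listed values sum to 766384 to 825365 TPM per library. No counts are used here, and depth is unknown. GENCODE M21 named 35254 IDs. Values entered as log2(TPM + 1) without rescaling. Genes that reached 1 TPM in 3 or more libraries were fitted with limma 3.58.1 in R 4.3.3, 1 mean per group, variance trend, 18 residual degrees of freedom, over 21 contrasts and 1 interaction, adjusted by Benjamini-Hochberg over 12147 genes within each. The fit was tested on simulated data. Copies were searched with BLAST 2.17.0.

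The members and gene lists were chosen with earlier results of these data known. Any member could be named; values in every library are given for leading regulators and the 2 largest and 2 smallest changes of each cytokine comparison at 24 h, and at most 3 genes of other lists, those with the largest changes among those called. Of 142 genes in those lists, 141 were in the table and Lin54 was not analysed here.

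Replicate numbers were checked for pairing by correlating deviations from group means. Every pair exceeded 0.1 in 4 of 22 comparisons: IL-21 added to anti-CD40 at 6 h (0.186 to 0.335), the same with IL-4 present (0.183 to 0.377), IL-4 added to anti-CD40 at 6 h (0.107 to 0.382), and IL-4 with anti-CD40 for 24 h against naive (0.108 to 0.407). This pairing comes from the data and not from the labels. Alternatives were rescaling by median of ratios, a minimum of 5 TPM or none, a pseudocount of 0.1, removal of mitochondrial, ribosomal protein and pseudogene transcripts, no variance trend, the replicate block, both low-mitochondrial replicate 1 libraries left out, only the groups compared, and each replicate left out.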

Additional observations from a re-analysis of the deposited data

Results flagged for a closer look

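The effect of IL-21 on the module at 24 h differed with and without IL-4. By limma's interaction term, 15 of 46 members had a smaller rise with IL-21 in the presence of IL-4, past an adjusted p of 0.05. The interaction was negative and past that threshold for 2.48% of all genes tested, whatever the direction of their IL-21 effect. They ran from Spc24 at -2.28 ± 0.58 to Smc2 at -1.03 ± 0.29, and included Mybl2 (-1.94), Bub1 (-1.78), Cdk1 (-1.69), Ccnb2 (-1.65) and Top2a (-1.47). The ribosomal protein share and replicate 1 of the IL-4 group moved with these groups. Without that replicate the count was 18, and without mitochondrial, ribosomal protein and pseudogene transcripts it was 17.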

How the results depend on the processing

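Of the module's values under alternatives, 608 stayed within the spread or within 1.5 times and 118 moved. For single members, 14366 values kept their side, 523 lost a call, 261 gained one and 1 changed sign: Hmmr, in IL-21 against IL-4 at 24 h, was -0.066 on rescaling by median of ratios. The cause of these moves was not tested. That rescaling gave 13 higher members for IL-21 added to anti-CD40 and IL-4, 35 for IL-4 added to anti-CD40 and 21 for IL-21 against IL-4, with 1 lower in the last and 0 lower for IL-4 added to anti-CD40 and IL-21 at 24 h. It gave 28 for the interaction, 1 higher for IL-21 added to anti-CD40 at 6 h, 1 lower for IL-4 added to anti-CD40 and IL-21 at 6 h, 1 higher at 6 h against naive with anti-CD40, with IL-4 and with both cytokines, 1 lower with IL-21 at 24 h against naive, and module means of 3.79 with both cytokines and 4.08 with IL-21 at 24 h. With only the groups compared, the counts were 1, 10 and 22 for those first 3 comparisons and 6 for the interaction. IL-21 added to anti-CD40 at 6 h then had 1 higher and 0 lower, IL-4 added to anti-CD40 at 6 h 0 lower, 24 h against 6 h with IL-4 19 higher, and the comparisons with naive 1 higher (anti-CD40, 6 h), 4 lower (IL-4, 6 h), 2 higher (IL-21, 6 h), and 19 higher and 1 lower (IL-4, 24 h). Without both replicate 1 libraries of low mitochondrial share, 1 was lower for IL-21 added to anti-CD40 and IL-4, for IL-21 against IL-4, for 24 h against 6 h with IL-4 and for IL-21 at 24 h against naive, 5 were lower for IL-4 added to anti-CD40 and IL-21 at 24 h and 2 at 6 h, 5 were higher for IL-21 added to anti-CD40 at 6 h, and 1 and 17 were higher with anti-CD40 at 6 h and 24 h against naive. Without mitochondrial, ribosomal protein and pseudogene transcripts, 0 were lower for IL-4 added to anti-CD40 and IL-21 at 24 h and 1 at 6 h, 1 was lower for IL-21 against IL-4 and for IL-21 at 24 h against naive, 3 were higher for IL-21 added to anti-CD40 at 6 h, and 1 was higher with anti-CD40 and with IL-4 at 6 h against naive. Module means were then 2.93 in naive cells, 2.51, 2.80, 2.61 and 2.63 at 6 h and 4.62, 5.06, 4.12 and 3.34 at 24 h with both cytokines, IL-21, IL-4 and anti-CD40 alone. With a pseudocount of 0.1 they were 1.41, then 1.15, 1.49, 1.25 and 1.21, and 3.67, 4.23, 2.86 and 2.03, with 0 lower for IL-4 added to anti-CD40 and IL-21 at 24 h and 1 higher for IL-21 added to anti-CD40 at 6 h. The count for IL-21 added to anti-CD40 at 6 h was also 1 with no filter, and a 5 TPM minimum gave 0 lower for IL-4 added to anti-CD40 and IL-21 at 24 h and 2 higher for IL-21 at 6 h against naive.

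With the replicate block, the pairing moved 3 counts: 1 lower for IL-21 against IL-4, 1 higher for IL-21 added to anti-CD40 at 6 h and 1 lower for IL-4 added to anti-CD40 and IL-21 at 6 h. It moved no other count by over 1.5 times, and the best correlate of 23 of the 27 libraries carried the same number.

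Leaving out 1 library at a time gave 39 to 45 higher for IL-21 added to anti-CD40 at 24 h, 8 to 29 higher and 0 to 1 lower for IL-21 added to anti-CD40 and IL-4, 15 to 20 for IL-4 added to anti-CD40, 0 to 3 lower for IL-4 added to anti-CD40 and IL-21, 28 to 36 higher and 0 to 1 lower for IL-21 against IL-4, and 9 to 19 for the interaction. At 6 h it gave 0 to 2 higher and 0 to 1 lower for IL-21 added to anti-CD40, and 0 to 1 lower for the other 3 cytokine comparisons. Against 6 h, 24 h had 42 to 44 higher with both cytokines, 42 to 45 with IL-21, 30 to 36 higher and 0 to 1 lower with IL-4, and 9 to 21 with anti-CD40 alone. Against naive at 6 h it gave 2 to 4 higher and 4 to 9 lower with both cytokines, 2 to 6 and 2 to 5 with IL-21, 1 to 2 and 3 to 7 with IL-4, and 1 to 2 and 2 to 6 with anti-CD40 alone. Against naive at 24 h it gave 41 to 43 higher with both cytokines, 44 to 45 higher and 0 to 1 lower with IL-21, 27 to 32 with IL-4, and 7 to 13 with anti-CD40 alone. Single lower calls appeared without IL-4 replicate 1 at 24 h (IL-21 added to anti-CD40 and IL-4, IL-21 against IL-4, 24 h against 6 h with IL-4), without IL-21 replicate 3 at 24 h (IL-21 against IL-4), without replicate 3 of both cytokines at 6 h (IL-21 added to anti-CD40 and IL-4) and without IL-21 replicate 3 at 6 h (IL-4 added to anti-CD40 and IL-21). Depth is unknown, so what it limits could not be given.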
